A study of Mus musculus with 2 samples.

Results

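The potassium channel genes of the aged mouse cortex were taken as every protein-coding gene whose symbol starts with Kcn in the GENCODE M21 annotation, which gave 94 genes among 55536 annotated ones, of which 22015 were nuclear and protein-coding. Another 5 genes with such symbols are antisense or overlapping noncoding RNAs and are not counted here. Total RNA was measured in cortex from the left hemisphere of male mice of the strain B6CASTF1/J, a first-generation cross that the labels also call B6Cast F1, at 18 to 20 months of age. The series holds 1 group of 2 libraries, numbered as biological replicates 2 and 1, each made from 300 ng of RNA with added ERCC spike-in RNAs. Both libraries carry the same donor identifier and separate biosample identifiers, and separate animals are not stated, so the spread between them may be technical. No treatment, genotype or age was compared, and no p-value is given.

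The summed expected counts of annotated genes were 29897486 for replicate 2 and 22827984 for replicate 1. All 6 general neuronal marker genes, all 4 excitatory and all 6 inhibitory neuron markers, and all 6 astrocyte markers were present in both libraries at 1 TPM or above. The 10 genes listed as markers of the striatum, the region below the cortex, had the highest median ratio between the libraries of the marker lists read. Their summed TPM was 438 in replicate 2 and 222 in replicate 1, and all 10 were higher in replicate 2 beyond counting error. They were not alone. Of 4 choroid plexus markers, which summed to 19.2 and 11.7 TPM, 2 were higher in this way and 0 lower. Of 7 oligodendrocyte markers, 5 were higher and 0 lower, and of the 4 excitatory ones 1 and 2. Levels below are deposited TPM, a transcript abundance scaled by transcript length and library, and a value with ± is the mean and SD of the 2 libraries (n = 2). In bulk tissue, fewer cells of a type and less RNA per cell cannot be told apart.

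Potassium channels let potassium ions leave or enter cells along their gradient, and in cortical neurons they set the resting potential, end action potentials and shape firing patterns, while in astrocytes they take up potassium released by firing. The voltage-gated Kv channels, the Slo and SK channels and the inward rectifiers assemble from 4 pore subunits, and tandem-pore subunits carry a pair of pore regions each and assemble as dimers. Each pore region holds a short conserved signature that forms the selectivity filter, where the backbone of the protein coordinates potassium ions. Other genes named Kcn encode no pore at all: the Kv1 beta subunits, the calcium-binding KChIP partners of Kv4, the BK beta subunits and the single-span KCNE subunits.

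The signature was searched in the leading protein-coding transcript of each gene as threonine or serine, any residue, glycine, then tyrosine, phenylalanine or leucine, then glycine. It was found in 75 of 94 genes (79.8%), against 4.81% of the 21759 other nuclear protein-coding genes read the same way. It was found at 2 places in 15 genes and at 1 place in 60. The 19 genes without it were all 3 Kv1 beta, all 4 KChIP, all 4 BK beta and all 5 KCNE genes, Kcnrg, Kcnu1 and Kcnj8. Kcnu1 and Kcnj8 are pore genes, but the transcripts read for them encode only 381 and 127 residues. Those of Kcnma1 and Kcnj4, of the same classes, encode 1209 and 445. Other transcripts of the 19 genes were not read. Of the 14 tandem-pore genes, 13 held it at 2 places, and the exception was Kcnk10, whose leading transcript encodes 241 residues. The other 2 genes with a pair of matches, Kcna6 and Kcnh2, each had 1 match of the serine and leucine kind besides the usual one.

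The coding stretches below show that signature in pore genes of the main classes, 5′ to 3′ on the coding strand from the GENCODE M21 transcripts of the reference strain (mm10), with the 15 signature bases in capitals.
Kcnf1: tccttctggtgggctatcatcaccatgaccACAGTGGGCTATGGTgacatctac
Kcna2: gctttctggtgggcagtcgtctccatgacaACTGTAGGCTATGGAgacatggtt
Kcna1: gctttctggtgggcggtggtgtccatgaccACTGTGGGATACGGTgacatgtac
Kcnma1: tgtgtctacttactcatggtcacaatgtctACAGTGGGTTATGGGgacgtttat
Kcnt1: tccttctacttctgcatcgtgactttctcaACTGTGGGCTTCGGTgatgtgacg
Kcnh3: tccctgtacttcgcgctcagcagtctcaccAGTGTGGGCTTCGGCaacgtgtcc
Kcnj4: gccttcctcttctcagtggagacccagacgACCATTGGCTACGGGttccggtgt
Kcnj9: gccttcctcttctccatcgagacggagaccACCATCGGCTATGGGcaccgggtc
Kcnk1, the first place: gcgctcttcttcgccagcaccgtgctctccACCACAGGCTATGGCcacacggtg
Kcnk1, the second place: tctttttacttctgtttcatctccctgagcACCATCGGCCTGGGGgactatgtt

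The Kcnf1 stretch lies at chr12:17175052-17175105 on the minus strand and that of Kcna2 at chr3:107105194-107105247 on the plus strand, each within 1 coding exon. The first Kcnk1 stretch is joined across an exon boundary. Kcnf1, a modifier that makes no channel alone, and Kcna1, which does, shared 42 of 54 bases (77.8%). Kcna1 and Kcna2 shared 43 of 54 (79.6%), Kcnj4 and Kcnj9 shared 41 of 54 (75.9%), and the pair of stretches within Kcnk1 shared 26 of 54 (48.1%). All 10 modifier genes and all 8 Kv1 pore genes had the tyrosine form, both Kcnt genes had the phenylalanine form, and 7 of the 8 Kcnh genes began theirs with serine and had phenylalanine.

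Of the 94 genes, 69 (73.4%) were detected, meaning 1 TPM or above in each library, beside 58.5% of all nuclear protein-coding genes. Another 4 reached that level in 1 library: Kcne1l in replicate 2, and Kcnh6, Kcng4 and Kcnj14 in replicate 1. The lowest detected gene was Kcnj8, at 1.00 TPM in replicate 2 and 1.13 in replicate 1. The remaining 21 stayed below 1 in both, and 4 of these, Kcnk7, Kcnk16, Kcnj1 and Kcna7, were listed at 0 in both. As far as counting error goes, a count of 0 in a library allows up to 3 counts there. The median detected Kcn gene had 26.7 TPM, against 16.2 TPM over all detected nuclear protein-coding genes, and 42 Kcn genes were above that second value.

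Together the 94 genes summed to 2052 TPM in replicate 2 and 2328 TPM in replicate 1, or 0.462% and 0.50% of nuclear protein-coding TPM. The 26 calcium channel genes named Cacn summed to 1032 ± 110 TPM, the 14 sodium channel genes named Scn to 843 ± 15.4 TPM and the 4 pacemaker genes named Hcn to 88.0 ± 4.83 TPM. The total was spread over many genes: the highest held 8.34% of it, the 10 highest 40.7%, and 14 genes together passed 50%. Few neighbours in the order of levels could be told apart. Of the 29 neighbour pairs among the 30 highest genes, 3 were ordered by their deposited credibility intervals, which had to lie apart, and the same way round, in each library; this is called the interval rule below. The level of those intervals is not stated, and for 8 of the 30 highest genes a deposited TPM lay above its own interval, by at most 1.16%. Over all 94 genes, 24 had a TPM outside its interval in either library. Some low genes, among them Kcnq1, Kcne3 and Kcnj15, lay below theirs in both libraries, and these by a wider margin.

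**Figure D1:**
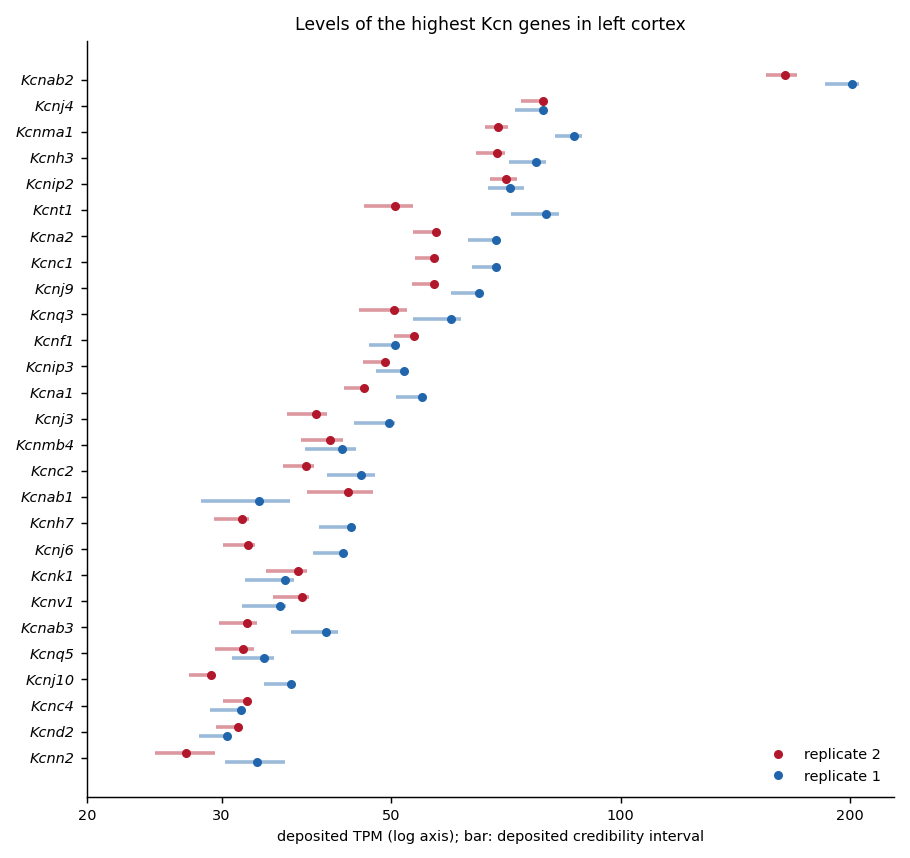
Deposited TPM (log axis) of 27 of the 30 Kcn genes with the highest mean, as a point per library with its deposited credibility interval as a bar; replicate 2 is drawn above replicate 1. Kcnab2 stands highest at 164 TPM in replicate 2 and 201 TPM in replicate 1, and the lowest mean shown is that of Kcnn2, 30.2 TPM.

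The genes named Kcna took the largest share of any letter, 19.9% ± 0.13 of Kcn TPM, and more of it came from the beta subunits than from the pores. The 3 Kv1 beta genes held 11.7% of Kcn TPM in replicate 2 and 11.8% in replicate 1, while the 8 Kv1 pore genes held 8.21% in replicate 2 and 7.92% in replicate 1. Kcnab2, a beta subunit that helps bring Kv1 channels to the axon (ENSMUSG00000028931.11, chromosome 4, 152390742 to 152477871), had 164 TPM in replicate 2 and 201 TPM in replicate 1, the highest value of all 94 genes in both. Kcna2, an axonal Kv1 pore subunit, had 57.4 TPM in replicate 2 and 68.8 TPM in replicate 1, so Kcnab2 was 2.90-fold above the highest pore gene of its class. The gap was wider in the second quantification (log2 ratio of Kcna2 over Kcnab2 -2.02 ± 0.12, against -1.53 ± 0.02). Kcna1, the other main axonal Kv1 pore gene, had 46.2 TPM in replicate 2 and 55.0 TPM in replicate 1, and Kcna2 was 1.25-fold above it in this quantification but about level in the second one (log2 ratio of Kcna1 over Kcna2 -0.32 ± 0.01, against -0.04 ± 0.06). Kcna4, which carries fast inactivation of its own, was 3.73-fold below Kcna2. Kcna6 had 27.5 ± 0.32, Kcna3 16.2 ± 0.74 and Kcna5 2.17 ± 0.79 TPM, while Kcna10 and Kcna7 were not detected.

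The 10 modifier genes, named Kcnf, Kcng, Kcns and Kcnv, join Kv2 subunits and alter their gating. Of these, 8 were detected, and all 10 summed to 142 TPM in replicate 2 and 134 TPM in replicate 1. Kcnb2, a Kv2 delayed rectifier, had 10.4 TPM in replicate 2 and 12.2 TPM in replicate 1. Kcnf1 led the modifiers with 53.7 TPM in replicate 2 and 50.6 TPM in replicate 1, and Kcnv1 followed with 38.2 and 35.7 TPM. Kcng1 was the highest of its letter at 16.6 ± 1.39 TPM. Kcns1, with 9.36 TPM in replicate 2 and 10.2 in replicate 1, and Kcns2, with 9.93 and 8.74, changed order between the libraries.

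The Kv3 genes encode fast channels that allow high firing rates. Kcnc1 had 56.9 TPM in replicate 2 and 68.7 TPM in replicate 1, Kcnc2 38.7 and 45.7, and Kcnc4 32.4 and 31.8. Kcnc1 was 1.49-fold above Kcnc2 in near-equal measure in both libraries (log2 0.57 ± 0.02). In the Kv4 class, which carries the A-type current of dendrites, the calcium-binding partners summed to more than the pores: 156 TPM for the 4 KChIP genes against 61.7 TPM for the 3 pore genes in replicate 2, and 165 against 62.0 TPM in replicate 1. Kcnip2 had 70.7 TPM in replicate 2 and 71.6 TPM in replicate 1, Kcnip3 49.1 and 52.0, Kcnip4 25.3 and 28.2, and Kcnip1 10.8 and 13.0. The pore genes Kcnd2, at 31.6 TPM in replicate 2 and 30.5 TPM in replicate 1, and Kcnd3, at 26.5 and 27.0 TPM, could not be ordered by the interval rule (log2 0.21 ± 0.05), nor could Kcnd2 and Kcnip4 (log2 0.22 ± 0.14). Kcnd1 was lower, 4.04 ± 0.57 TPM.

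The Kv7 genes encode the M-current, which restrains repeated firing. Kcnq3 had 50.5 TPM in replicate 2 and 59.9 TPM in replicate 1, and Kcnq5 32.0 and 34.1 TPM. Kcnq1, a gene of heart and epithelia, was listed at 0.13 TPM in replicate 2 and 0.32 in replicate 1. Both values lay below their deposited intervals, which start at 0.49 and 0.79. Its deposited posterior mean TPM was 1.85 and 2.65, on 8 and 10 counts, so its detection depends on the estimate used. Among the 8 genes named Kcnh, Kcnh3 of the ELK group led with 68.8 TPM in replicate 2 and 77.4 TPM in replicate 1, which was 11.1-fold above its paralogue Kcnh4. Kcnh7 of the ERG group had 31.9 TPM in replicate 2 and 44.3 TPM in replicate 1, and Kcnh1 of the EAG group 27.5 and 29.1 TPM. Kcnh7 was thus 1.33-fold higher with a wide spread between libraries (log2 of Kcnh1 over Kcnh7 -0.41 ± 0.28). The second quantification gave -0.20 ± 0.33. Kcnh2, the ERG gene best known from the heart, had 13.2 ± 0.62 TPM.

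Among channels opened by calcium or sodium, Kcnma1, the large-conductance BK pore (ENSMUSG00000063142.15, chromosome 14, 23289431 to 24014491), had 69.1 TPM in replicate 2 and 87.0 TPM in replicate 1. Of its 4 beta subunits, Kcnmb4, the one typical of neurons, had 41.7 TPM in replicate 2 and 43.1 TPM in replicate 1. It was 18.5-fold above Kcnmb2, the next beta gene (27.2-fold in the second quantification), and Kcnmb1, the smooth muscle form, and Kcnmb3 stayed below 1 TPM. Kcnma1 was 1.83-fold above Kcnmb4. Kcnt1, the sodium-activated Slack channel, had the largest ratio of TPM between the libraries among the 10 highest genes. It had 50.7 TPM in replicate 2 and 79.9 TPM in replicate 1, and was 2.63-fold above Kcnt2. That fold covers all transcripts of each gene. Noncoding ones held 69.5% of Kcnt1 in replicate 2 and 77.7% in replicate 1, against 2.70% and 2.13% of Kcnt2. The order of the coding transcripts of these genes was not tested. Kcnu1, known as a sperm channel, had 2.24 ± 0.42 TPM. In the small-conductance SK class, Kcnn2 was 2.60-fold above Kcnn3 and 4.09-fold above Kcnn1, and Kcnn4, the form of blood and epithelial cells, was below 1 TPM.

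The 15 inward rectifier genes named Kcnj held 13.9% of Kcn TPM in both libraries, and 11 of them were detected. They were the largest class by role in this quantification, while in the second the Kv1 beta genes held 13.6% and the inward rectifiers 13.0%, and by expected counts, which carry length, the inward rectifiers held 10.1% and the Kv7 genes 14.7%. Kcnj4, a strong rectifier of forebrain neurons, had 79.1 TPM in replicate 2 and 79.1 TPM in replicate 1, 10.3-fold above Kcnj2 of the same group. The genes of the G-protein-gated channels, which carry slow inhibition by GABA and other transmitters, were close in level. Kcnj9 had 57.0 TPM in replicate 2 and 65.1 TPM in replicate 1, Kcnj3 39.9 and 49.7 TPM, and Kcnj6 32.5 and 43.3 TPM. Kcnj9 was 1.37-fold above Kcnj3, and Kcnj3 1.19-fold above Kcnj6, both by the interval rule in both libraries, while the last of this group, Kcnj5, was below 1 TPM. Kcnj10, the main potassium channel of astrocytes, had 29.1 TPM in replicate 2 and 36.9 TPM in replicate 1, 2.93-fold above its partner Kcnj16. Of the ATP-sensitive channel genes, Kcnj11, the neuronal pore, was 15.9-fold above Kcnj8, which is typical of vascular mural cells. Kcnj8 rests on 45 counts in replicate 2 and 41 in replicate 1.

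Of the 14 tandem-pore genes, which carry background current, 9 were detected and together they held 6.19% of Kcn TPM in replicate 2 and 6.09% in replicate 1. Kcnk1 had 37.8 TPM in replicate 2 and 36.3 TPM in replicate 1, 1.42-fold above Kcnk2, the stretch- and lipid-sensitive TREK gene. Kcnk9 was 1.71-fold above Kcnk3, the other acid-sensitive TASK gene. Kcnk4 had 14.6 ± 2.88 and Kcnk12 14.6 ± 2.23 TPM. None of the 5 KCNE genes was detected in both libraries, and they summed to 2.17 TPM in replicate 2 and 1.48 TPM in replicate 1. Kcne1l was the highest of them at 1.24 TPM in replicate 2 and 0.79 TPM in replicate 1. Kcnrg, a gene related to the assembly domain of Kv channels, had 0.30 ± 0.03 TPM.

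**Figure D2:**
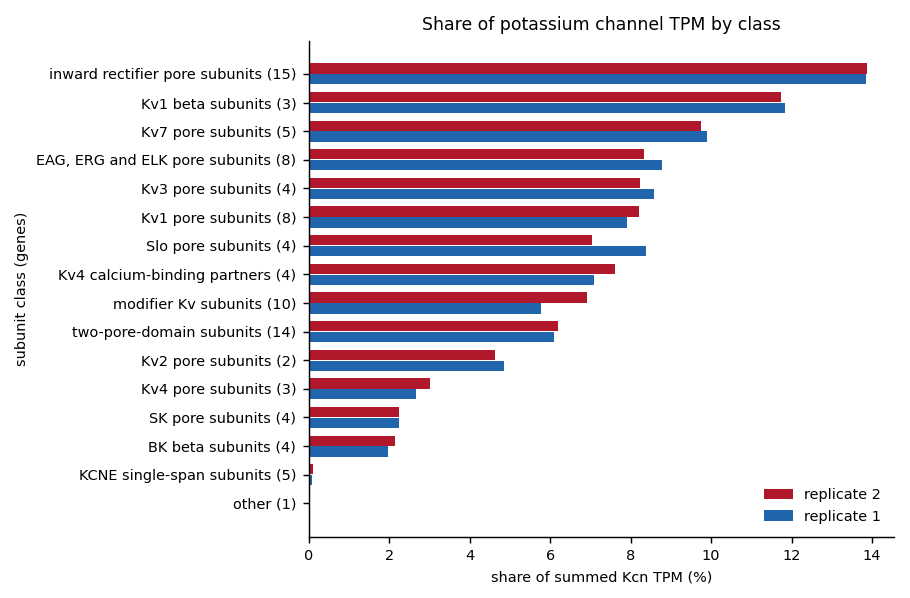
Share of summed Kcn TPM (%) held by each subunit class, with the number of genes in parentheses; the upper bar of each pair is replicate 2 and the lower is replicate 1. The inward rectifiers hold 13.9% in both libraries, the modifier Kv genes 6.91% in replicate 2 and 5.76% in replicate 1, and the Slo genes 7.05% in replicate 2 and 8.37% in replicate 1.

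The pairs described above belong to 29 ratios of related or partner genes. By the interval rule, the first gene of the pair was higher in 21, the second in 6, and 2 could not be ordered. By the mean of the 2 libraries, all 29 had the same direction in the second quantification. This did not hold in each library alone. In replicate 2 of that quantification, Kcnh1 had 41.3 TPM against 40.3 for Kcnh7, and Kcna1 74.23 against 74.19 for Kcna2. The widest spread between libraries was that of Kcnab2 over Kcnab1 (log2 1.90 in replicate 2 and 2.58 in replicate 1).

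**Figure D3:**
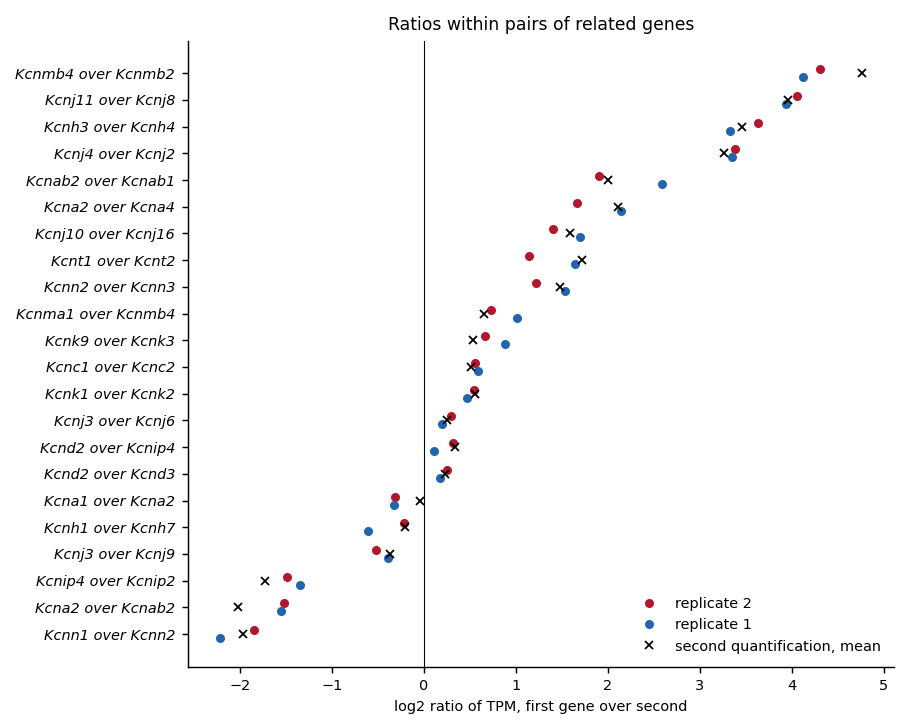
Log2 ratio of TPM within 22 of the 29 pairs of related genes, first gene over second, with a point per library (replicate 2 above replicate 1) and a cross for the mean of the second quantification. Points right of 0 mean a higher first gene; Kcnmb4 over Kcnmb2 is highest at 4.30 in replicate 2 and 4.11 in replicate 1.

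Most of these genes produce several transcripts. Of the 58 Kcn genes at 5 TPM or more in both libraries, 47 had more than 1 annotated transcript, and their leading transcript held a median of 70.1% of the gene. It was the same transcript in both libraries in 44 of the 47 (93.6%, against 89.5% of genes of that level) and in both quantifications in 40 (85.1%, against 76.2%). The lead was firm for some genes: Kcnmb4-201 held 94.8% in replicate 2 and 92.8% in replicate 1, and Kcng1-202 98.3% and 97.4%. Kcnab2 was divided, with Kcnab2-201 at 32.7% in replicate 2 and 40.5% in replicate 1. Kcnab2-207 held 40.3% in replicate 2, where it led, and 23.9% in replicate 1, and it was first in the second quantification at 43.2%. In 3 genes the transcript with the highest mean share was not a coding one. Kcnt1-206, with a retained intron, held 27.0% in replicate 2 and 22.7% in replicate 1. In the second quantification it held 19.2% ± 1.94, and Kcnt1-209 was first there at 29.1%. Noncoding transcripts together held 69.5% of Kcnt1 in replicate 2 and 77.7% in replicate 1 of the first quantification. Kcna6-201, annotated as a target of nonsense-mediated decay, held 64.8% in replicate 2 and 33.9% in replicate 1, where the coding Kcna6-204 led with 45.9%. Kcnk2-203, of the same kind as Kcna6-201, held 24.7% in replicate 2 and 30.3% in replicate 1. The estimates depended on the method for single genes: Kcnj16-201 held 95.1% ± 6.94 in the first quantification and 2.73% ± 3.40 in the second, and Kcnh4-201 92.2% ± 11.0 and 35.8% ± 7.4.

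**Figure D4:**
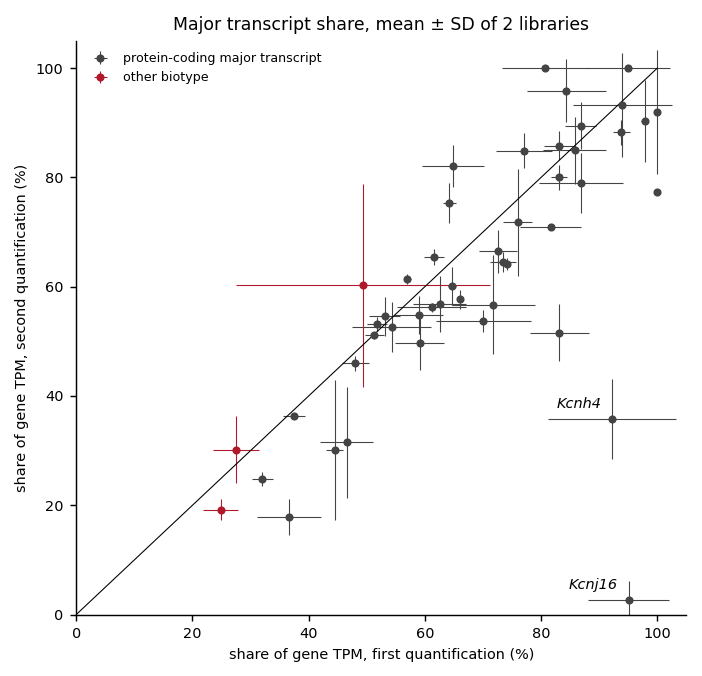
Share of gene TPM (%) held by the leading transcript of 47 Kcn genes in the first quantification (horizontal) and in the second (vertical), as the mean of 2 libraries with SD bars; the line marks equal shares and the 3 genes led by a transcript of another biotype are in red. Kcnj16 and Kcnh4 lie farthest below the line, at 2.73% and 35.8% in the second quantification.

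Between the libraries, each gene was compared as the TMM-scaled log2 ratio of expected counts, replicate 2 over replicate 1, with a 95% exact (Clopper-Pearson) interval that covers counting error only, and it was called where that interval excluded 0. Of the 90 Kcn genes with any count, 20 (22.2%) were called higher in replicate 2, beside 20.4% of nuclear protein-coding genes with any count. Another 20 (22.2%) were called lower, beside 10.9%. All 40 were among the 64 genes whose mean count reached 100, where the shares were 31.3% higher (beside 28.4%) and 31.3% lower (beside 14.2%). The differences were small: 62 of the 64 lay within 0.5 of 0 on the log2 scale (96.9%, against 97.6% of all such genes), and their median was 0.00, against 0.05 over all. These calls move with the scaling, since spike-in scaling lowers every ratio by 0.13 and a scale taken from deposited TPM by 0.14. With spike-ins 6 genes were called higher and 35 lower, and on the TPM scale 5 and 35. Those scalings shift all other genes as well, and the shares over all nuclear protein-coding genes were not computed under them. In the second quantification 20 genes were called higher and 18 lower again, and none was called in opposite directions.

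Only 2 of the 64 passed 1.5-fold, both higher in replicate 2, beside 0.721% of nuclear protein-coding genes with mean counts of 100 or more. Lower past 1.5-fold were 0, beside 0.696%. Kcnab1, a beta subunit that speeds inactivation of Kv1 channels (ENSMUSG00000027827.16, chromosome 3, 65109384 to 65378223), had 2576 expected counts in replicate 2 and 1334 in replicate 1 and 44.0 and 33.6 TPM (log2 0.61, interval 0.51 to 0.70). Kcna5, a Kv1 pore gene, had 156 counts in replicate 2 and 66 in replicate 1 and 2.73 and 1.61 TPM (log2 0.89, interval 0.47 to 1.34). Under scaling by total count, by spike-ins or by TPM, Kcna5 alone stays past 1.5-fold. The striatal marker genes moved the same way, with a median log2 ratio of 1.11 and 10 of 10 called higher. Of the choroid plexus markers 2 of 4 were called higher and 0 lower, and of the oligodendrocyte markers 5 of 7 and 0. The part of any of these lists in the difference of Kcnab1 and Kcna5 was not tested.

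**Figure D5:**
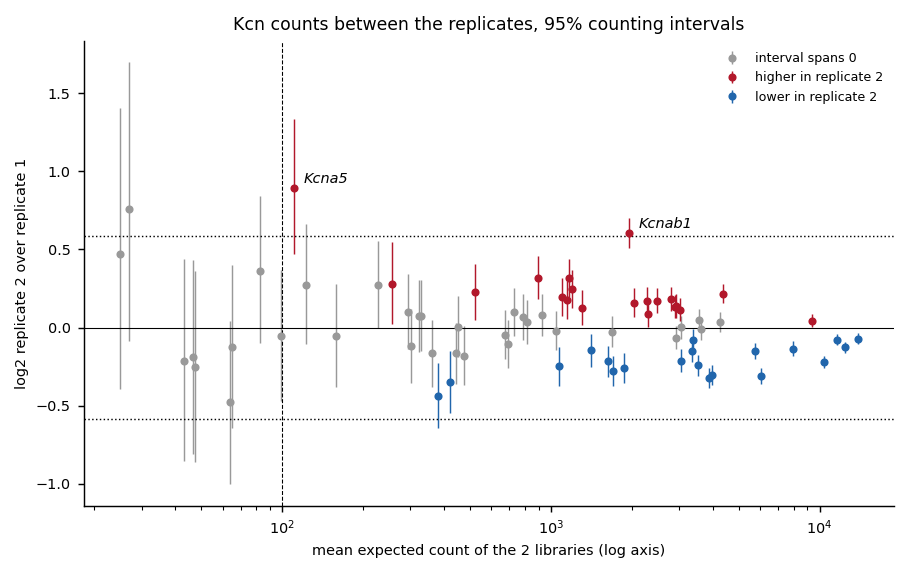
Log2 ratio of scaled expected counts, replicate 2 over replicate 1, against the mean count (log axis) for Kcn genes whose mean count reached 20, with 95% counting intervals as bars; red is called higher in replicate 2, blue lower and grey neither. Dotted lines mark 1.5-fold and the dashed line a mean count of 100; Kcna5 (0.89) and Kcnab1 (0.61) lie above the upper dotted line.

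By class, under TMM scaling, 4 of 8 modifier Kv genes of a mean count of at least 100 were called higher in replicate 2 and 0 lower. Over all nuclear protein-coding genes of that depth, the TMM shares were 28.4% higher and 14.2% lower. Kcns2 (log2 0.32), Kcng1 (0.32), Kcnf1 (0.22) and Kcnv1 (0.17) were the 4. The genes named Kcnh had 0 of 6 called higher and 3 lower under TMM, beside the same shares. These 3 were Kcnh4 (-0.35), Kcnh7 (-0.31) and Kcnh5 (-0.26). With spike-ins, the modifier genes gave 3 higher and 0 lower, and the Kcnh genes 5 lower. Shares over all genes were not computed with spike-ins, so these counts have no background beside them. Kcnb2 was lower in replicate 2, with a log2 ratio of -0.21. At a mean count of 100 or above, the lowest ratio was that of Kcnk4, -0.43 with an interval of -0.64 to -0.23, on 367 counts in replicate 2 and 391 in replicate 1. Kcnk4 (chromosome 19, 6923966 to 6934515) overlaps Catsperz (6922371 to 6925380) on the same strand at 1 end. Reads from the shared part cannot be assigned without doubt, and their part in this ratio was not tested.

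Ratios of TPM and of TMM-scaled counts differed, by a median of 0.14 on the log2 scale. Kcnj4 had a log2 count ratio of 0.13 and equal TPM, with an effective length of 2053 bases in both libraries. Kcnab2 had a log2 count ratio of 0.04 and a lower TPM in replicate 2, where its effective length was 3119 bases, against 2715 in replicate 1. Kcnt1 had a log2 count ratio of -0.30, and its effective length was 3840 bases in replicate 2 and 3292 in replicate 1, with the isoform shares given above. Noncoding transcripts held a smaller share in replicate 2 in 26 of 34 Kcn genes that have them (76.5%), close to the 75.2% seen over all nuclear protein-coding genes.

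Within the span of Kcn genes the annotation also places short features of their own, of the types TEC (to be experimentally tested) and sense-intronic, on the same strand. Of 28 such features whose mean count reached 20, 25 (89.3%) were called lower in replicate 2, beside 71.7% of all features of these types at that count. Called higher were 0, beside 0.0985%. Kcnip4, whose locus spans chromosome 5, 48389502 to 49524907, held 20 of the 28, and 18 of them were lower, with 1561 counts summed over them in replicate 2 and 2725 in replicate 1. The ratio of Kcnip4 itself was -0.02 on the log2 scale (interval -0.14 to 0.11), so the features and the gene that holds them did not move alike.

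Partner proteins of these channels were read from a list of 29 genes, of which 26 were detected. Calm2 and Calm3, which encode calmodulin, a fixed subunit of SK and Kv7 channels, had 966 ± 17.2 and 768 ± 8.24 TPM. Gnb1, a G-protein beta subunit that opens the channels of Kcnj3, Kcnj6 and Kcnj9, had 387 ± 10.8 TPM, and Ank2 and Ank3, the ankyrins that anchor channels in the axon, 376 ± 35.7 and 199 ± 32.9 TPM. Dlg4, a scaffold that clusters Kv1 and inward rectifier channels, had 328 ± 26.7 TPM, and Ptk2b, a kinase that acts on Kv channels, 179 ± 5.61 TPM. Of the 29 genes, 14 were called higher in replicate 2 and 5 lower, with a median log2 ratio of 0.04; 26 of the 29 had a mean count of at least 100, where all nuclear protein-coding genes gave shares of 28.4% higher and 14.2% lower, and 22 at least 2000, where they were 47.9% and 19.9%. Of these 7 partners, 6 had a higher mean than Kcnab2, the highest channel gene, and Ptk2b lay between the values of Kcnab2 in the 2 libraries.

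The 94 genes lie on 19 chromosomes, and 18 of them fall into 8 groups of neighbours within 200 kb. Levels within a group ranged from alike to far apart. Kcnj16 and Kcnj2 on chromosome 11 had 11.2 ± 0.27 and 7.70 ± 0.13 TPM, and Kcnk5 and Kcnk16, Kcne2 and Kcne1, and Kcnj5 and Kcnj1 were all below 1 TPM. On chromosome 3 (107036169 to 107195721) Kcna2 had 63.1 ± 8.06 TPM, Kcna3 16.2 ± 0.74 and Kcna10 0.03 ± 0.04 TPM, and on chromosome 6 (126532551 to 126740674) Kcna1 had 50.6 ± 6.24, Kcna6 27.5 ± 0.32 and Kcna5 2.17 ± 0.79 TPM. On chromosome 1 (172320501 to 172374085) Kcnj9 and Kcnj10 lie together, a neuronal and an astrocyte gene at 61.1 ± 5.78 and 33.0 ± 5.57 TPM. Another annotated gene with a mean TPM of 1 or more overlaps 22 Kcn genes. Kcnj13, at 1.32 TPM in replicate 2 and 1.03 in replicate 1, lies against Gigyf2 on the opposite strand, at 57.3 and 64.7 TPM. The use of strand in counting is not stated, so the level of a gene such as Kcnj13, which lies wholly within the span of Gigyf2, is uncertain.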

How the data were processed

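Each library had a deposited gene table and transcript table in the layout of RSEM, from a transcriptome alignment, and a transcript table in the layout of kallisto, from 1 read file, here called the second quantification, per the file headers and deposited file lists (mm10, GENCODE M21). No source used here gives the aligner, versions or use of strand. The authors' deposited expected counts and estimated counts are unnormalized; the TPM values deposited by the authors are scaled to transcript length and library. The authors also deposited each transcript's share of its gene in percent. Reads were assigned on the reference genome, which could lower counts from CAST alleles.

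Expected counts were rounded and scaled with TMM (edgeR 4.0.16, R 4.3.3), 0.5 was added to each, and exact intervals were computed with scipy 1.17.1; DESeq2 1.42.0 gave alternative size factors. The interval step was tested on simulated counts that varied by counting error only (Poisson draws). Such counts cannot show how the intervals behave under other variation between libraries. With 1 group of 2 libraries no test between conditions exists. Genes were named by rule: the 30 highest by mean TPM, the highest of each letter, those past 1.5-fold at a mean count of 100 or more, pair members, and the 8 highest partners; others were named after their values were seen, to account for every class. Some genes and sequences that the rule names are not reported here. The genes and lists were chosen with earlier results of these data known.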

Additional observations from a re-analysis of the deposited data

How the results depend on the processing

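The count of detected Kcn genes stayed between 64 and 73 under other TPM minimums, the second quantification and posterior mean TPM, and was 70 to 72 with 1 library left out. All 30 of the highest genes remained so in the second quantification and with posterior mean TPM, and 29 of them in each library alone. The Kcna share was 20.7% in the second quantification and 18.0% by expected counts, 19.8% to 19.9% with 1 library left out. Genes called higher in replicate 2 numbered 6 with spike-in scaling and 5 with the TPM scale, and those called lower 35 and 35. No share over all genes was computed under these scalings. Genes past 1.5-fold higher numbered 1 by total count, 1 by spike-ins, 1 at a mean count of 500 or more and 4 at 10 or more, where Kcne1l and Kcne4 were added. Among called genes, Kcnab2 turned to -0.0022 by total count, -0.082 by spike-ins and -0.093 on the TPM scale. Kcnip3 turned to -0.038 and -0.049 and Kcnd3 to -0.011 and -0.022 by spike-ins and the TPM scale. Kcnj4 turned to -0.0027 and Kcnk1 to -0.0094 on the TPM scale, and Kcna1 to 0.0071 in the second quantification. By expected counts, which carry length, Kcna2 over Kcnab2 turned to 0.16 and Kcnn2 over Kcnn3 to -0.016, and 27 to 29 pairs were ordered with 1 library left out. The median leading-transcript share was 60.3% in the second quantification; the cause was not tested. No paired analysis was possible because the series has a single group. With 2 libraries, the spread of a level rests on 1 difference, and low genes such as those named Kcne rest on few counts.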

Other observations

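The 5 noncoding RNAs named after Kcn genes were below 10 TPM in both libraries. Kcnq1ot1, the long antisense RNA of the imprinted Kcnq1 domain (chromosome 7, 143203458 to 143296549), had 3400 expected counts in replicate 2 and 5903 in replicate 1, and 1.77 and 4.27 TPM, a log2 ratio of -1.14 (95% counting interval -1.20 to -1.08), while Kcnq1 itself had 8 counts in replicate 2 and 10 in replicate 1. Kcnmb4os2, antisense to Kcnmb4, had 8.19 ± 0.58 TPM (SD, n = 2) and a log2 ratio of 0.07 (interval -0.35 to 0.49). Kcnd3os had 2.33 ± 0.09 TPM, and Kcnab3os and Kcnmb4os1 were listed at 0 in 1 library each.

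At a mean count of 2000 or more, 13 of 28 Kcn genes were called lower in replicate 2 (46.4%), against 19.9% of nuclear protein-coding genes of that depth, and 10 were called higher, against 47.9%. Across the 94 genes, the second quantification kept the order of levels (Spearman rho 0.997 across genes, which are not independent replicates), and its TPM was higher than the first by a median log2 of 0.60 in replicate 2 and 0.56 in replicate 1, beside 0.65 over nuclear protein-coding genes.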
